A study of Homo sapiens with 6 samples.

Results

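The lysosomal genes described here are 55 genes for hydrolases, membrane proteins and delivery factors of the lysosome, chosen by name and found by gene symbol among the 27776 genes of a table of raw read counts. All 55 passed the filter on low counts, so that all are among the 15865 genes tested. Polyadenylated RNA was sequenced from MDA-MB-231, a human triple-negative breast cancer cell line, in 3 control libraries and 3 libraries of cells treated with khellin, a plant furanochromone. The labels give no dose, time or solvent, and the series' design text speaks of docetaxel-resistant cells where the sample titles say control, so whether the control cells were resistant is not settled. The sample titles call the replicates biological, without saying whether they are separate cultures, and the p-values measure the spread between these libraries.

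Lysosomes are acidic organelles in which soluble hydrolases break down proteins, glycans, lipids and nucleic acids. Most of these enzymes are tagged with mannose 6-phosphate in the Golgi by a phosphotransferase and carried to endosomes by mannose 6-phosphate receptors. The limiting membrane holds heavily glycosylated proteins such as LAMP1 and transporters that export the products. Many of the genes carry a site read by the transcription factor TFEB and its relatives, which has CACGTG at its core.

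CACGTG and longer motifs around it were looked up in RefSeq promoter windows on GRCh38.p14, each from 250 bases before to 50 bases after a gene's start. Of the 55 genes, 41 had a window, and CACGTG stood in 11 of these, 26.8%, against 9.86% of the windows of 11541 tested genes and 7.43% of all 27305 windows. The 8-letter form TCACGTGA stood in 7 windows (17.1%, against 1.87% of the windows of tested genes), and CACGTG with GT directly before and AC directly after it in 4 (9.76% against 0.771%). The motifs are palindromes, so both strands were read at once, and each longer form contains CACGTG. Stretches directly before the starts of LAMP1 and IGF2R are shown because these genes, which fell with khellin, hold the most matches. A stretch before the start of GAA is shown as an example of a gene with 2 matches that did not pass the test. CACGTG is in capitals, and the stretches run on the plus strand at chr13:113297039-113297238, chr6:159968882-159969081 and chr17:80101381-80101555. The GAA stretch has 175 bases and the others 200, because it was cut before an annotated exon, short of the start of its window.
LAMP1: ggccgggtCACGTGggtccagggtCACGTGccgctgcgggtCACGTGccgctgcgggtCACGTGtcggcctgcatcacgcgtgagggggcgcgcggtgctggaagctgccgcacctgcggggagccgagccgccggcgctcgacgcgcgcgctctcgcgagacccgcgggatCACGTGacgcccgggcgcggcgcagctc
IGF2R: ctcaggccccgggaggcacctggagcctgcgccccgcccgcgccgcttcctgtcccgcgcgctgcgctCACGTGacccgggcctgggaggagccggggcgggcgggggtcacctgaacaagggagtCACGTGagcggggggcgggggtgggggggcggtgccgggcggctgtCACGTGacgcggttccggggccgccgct
GAA: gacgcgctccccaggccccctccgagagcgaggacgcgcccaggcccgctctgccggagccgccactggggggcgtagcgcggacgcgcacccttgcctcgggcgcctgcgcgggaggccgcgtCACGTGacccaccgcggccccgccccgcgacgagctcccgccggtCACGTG

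Of the 18 genes with a window that fell, 6 held CACGTG, and so did 5 of 20 that were not called and none of 3 that rose. Besides LAMP1 and IGF2R, the 4 that fell are CTSA, NEU1, GALNS and CD63, and their matches are shown with 6 bases on each side. CTSA lies on the plus strand (chr20:45891287-45891304 and chr20:45891304-45891321). NEU1 (chr6:31862936-31862953), GALNS (chr16:88857110-88857127 and chr16:88856968-88856985) and CD63 (chr12:55729178-55729195) are on the minus strand.
CTSA, farther match: gactgtCACGTGgcgccg
CTSA, nearer match: ggagttCACGTGactcgt
NEU1: cgtgatCACGTGggagga
GALNS, farther match: ccgcgtCACGTGacccgc
GALNS, nearer match: gcgagtCACGTGgccgtc
CD63: aggggcCACGTGgccctg
The windows of CTSL and SMPD1, the largest falls of all 55 genes, and of CTSV, FUCA1 and NPC1, which rose, did not hold these letters. The uncalled genes with CACGTG besides GAA were CLN3, CTSD, CTSF and GNPTG. A match describes the letters in a window and says nothing of binding.

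Of the 55 lysosomal genes, far more were called lower with khellin than higher. At an adjusted p under 0.05 in a quasi-likelihood test fitted with edgeR to the whole table, 23 of the 55 fell, 5 rose and 27 did not pass, so that 41.8% were called lower where 8.82% of all 15865 tested genes were, and 9.09% were called higher where 10.6% of all were. Either call was made for 19.4% of all tested genes. The 55 genes were chosen with earlier results of these data known, so their shares do not speak for lysosomal genes in general. Of 71 other tested genes that KEGG assigns to the lysosome, 15.5% were called lower and 8.45% higher. The 23 falls were small. ASAH1 fell by 10.3%, the least, CTSL fell by 34.5%, the most, and 22 of the 23 were under 1.5-fold. The median log2 fold change was -0.10 over the 55 genes and 0.00 over all tested genes. Gene positions are those of the count table, which match GRCh38. Levels are given as CPM, counts scaled to a common library total with TMM factors and expressed per 1e6 counts, and their errors as the SD of 3 libraries. The khellin libraries lay below all control libraries for 27 of the 55 genes and above them for 8, against 18.0% and 20.2% of all tested genes (38.2% either way). In bulk RNA, fewer cells that express a gene and less of its RNA per cell cannot be told apart.

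The falls were called less often with some libraries left out. Without khellin replicate 1 or without khellin replicate 3, 13 of the 55 genes were called lower, while the count over all genes went from 1399 to 691 and 643. With library size in place of TMM factors 18 were lower and 6 higher, beside 986 lower and 2208 higher genes in all, where TMM gave 1399 and 1681. All 5 rises and 13 of the 23 falls kept their call in each of 15 alternatives. Control replicate 3 had the highest CPM of the controls for 37 of the 55 genes, against 40.2% of all tested genes, and without it 23 were called lower and 5 higher, with GALNS no longer called (adjusted p = 0.0536) and LIPA called lower (adjusted p = 0.0438).

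**Figure D1:**
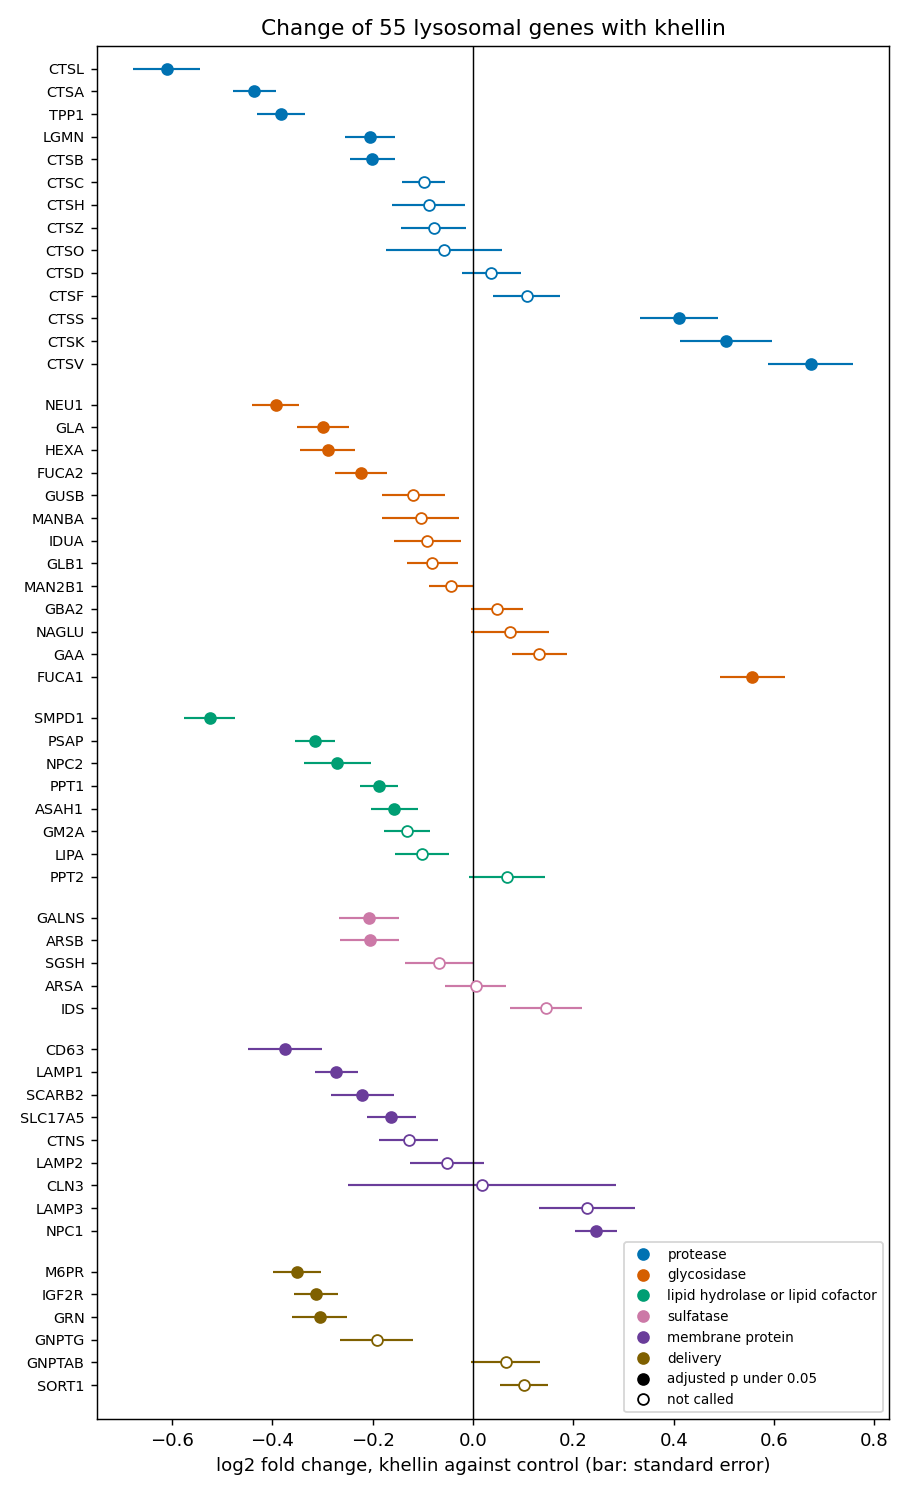
Log2 fold change of khellin against control (x axis) for each of the 55 genes, grouped by class, with bars for the standard error, filled points for an adjusted p under 0.05 and open points for genes not called. The 23 filled points on the left reach -0.61 (CTSL), and the 5 on the right are CTSV, FUCA1, CTSK, CTSS and NPC1.

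**Figure D2:**
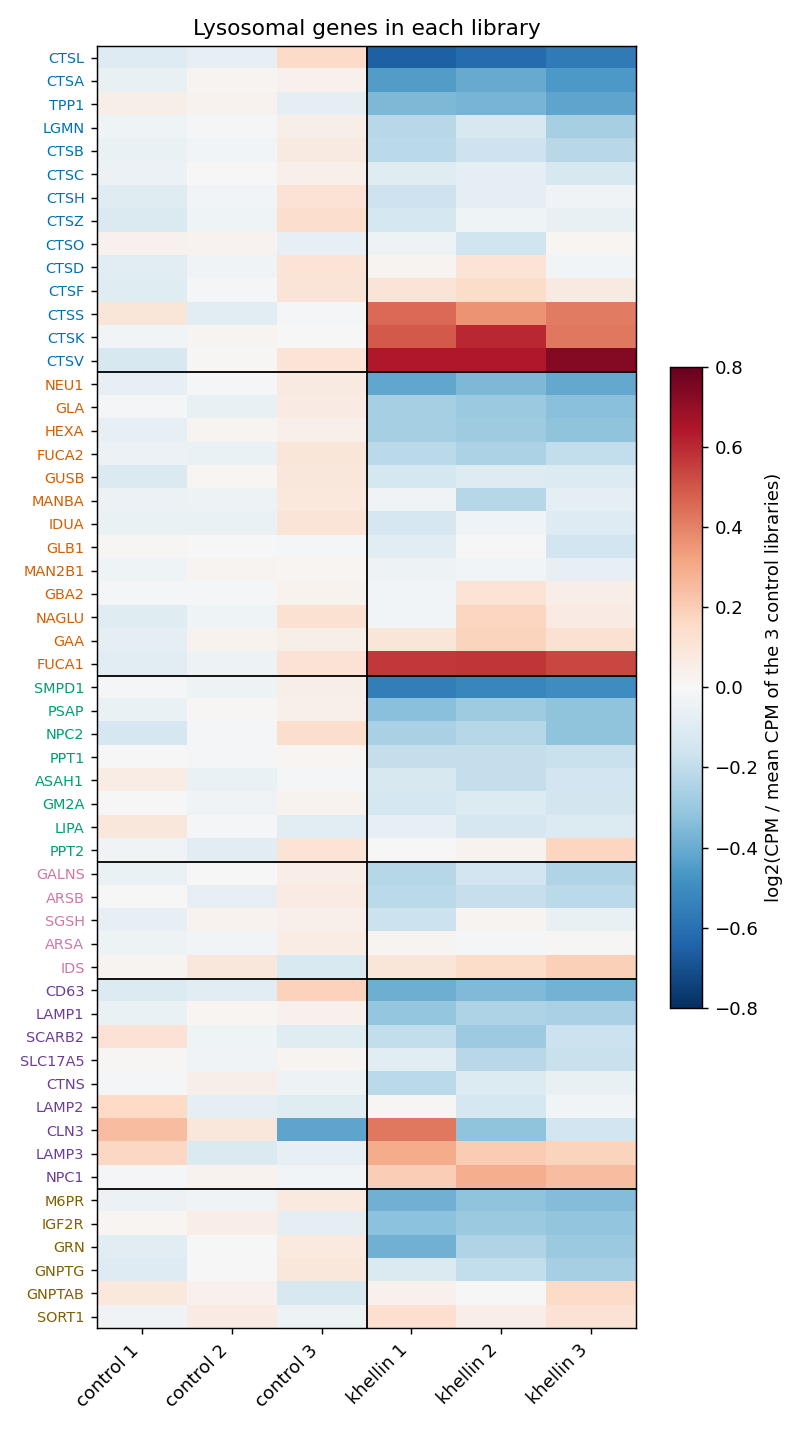
Log2 ratio of each library's CPM to the mean of the 3 control libraries, one line per gene in the order of the plot of fold changes and one column per library, with label colours for the 6 classes. Blue is below and red above the control mean. CTSV, FUCA1, CTSK and CTSS are the reddest lines in all khellin columns, and CTSL, SMPD1 and CTSA the bluest.

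The proteases went both ways. Of 14 genes, 5 fell and 3 rose, and the median log2 fold change of the class was -0.08. These are 35.7% and 21.4%, against 8.82% and 10.6% of all tested genes. CTSL encodes cathepsin L, a cysteine endopeptidase, and lies on chromosome 9 (plus strand, 87724051 to 87731469). It had 285, 292 and 340 CPM in control replicates 1 to 3 and 194, 200 and 207 CPM in khellin replicates 1 to 3. The groups did not overlap, and control replicate 3 stood above the other controls. CTSL fell by 0.61 on the log2 scale (SE 0.0669, adjusted p = 0.000344 by edgeR's quasi-likelihood test), and by 0.53 (SE 0.0391) without control replicate 3.

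CTSA encodes cathepsin A, a serine carboxypeptidase that also shields the sialidase of NEU1 and the beta-galactosidase of GLB1 in a complex. The gene (chromosome 20, plus strand, 45890144 to 45898949) had 370, 390 and 394 CPM in the controls against 282, 291 and 280 CPM with khellin, with no overlap. Its log2 fold change was -0.44 (SE 0.0425, edgeR adjusted p = 0.000176). TPP1, tripeptidyl peptidase 1, removes tripeptides from the ends of small proteins. The gene (chromosome 11, minus strand, 6612768 to 6619448) had 268, 264 and 245 CPM in the controls against 202, 201 and 194 CPM with khellin, again without overlap, and fell by 0.38 (SE 0.0475, edgeR adjusted p = 0.000664). CTSB, the cysteine protease cathepsin B, and LGMN, which cleaves after asparagine and processes other cathepsins, each fell by 0.20 or slightly more on the log2 scale (adjusted p = 0.0131 and 0.0190). CTSB lost its call without khellin replicate 1 or 3 (adjusted p of at most 0.0743), and LGMN without control replicate 2 or khellin replicate 1 or 3 (at most 0.104).

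The 3 proteases that rose are cysteine cathepsins of low level in these cells. CTSV, the closest human relative of CTSL, lies on the same chromosome on the minus strand (97029677 to 97156556). It had 6.69, 7.37 and 7.87 CPM in the controls against 11.4, 11.4 and 12.2 CPM with khellin. The groups were far apart, and the log2 fold change was 0.67 (SE 0.0849, edgeR adjusted p = 0.000721). CTSK, the collagen-degrading cathepsin of osteoclasts, had 4.26, 4.38 and 4.33 CPM in the controls against 6.07, 6.56 and 5.79 CPM with khellin (log2 fold change 0.50, SE 0.0916). CTSS, which trims the invariant chain of MHC class II molecules in antigen-presenting cells, had 9.86, 8.63 and 9.13 CPM in the controls against 12.6, 11.8 and 12.3 CPM with khellin (log2 fold change 0.41, SE 0.0782). CTSK and CTSS are neighbours on chromosome 1, and neither showed overlap between the groups. Within a library, the log2 ratio of CTSL to CTSV counts was 5.38 ± 0.0682 in control and 4.10 ± 0.0244 in khellin libraries (SD, n = 3 per group). The difference of -1.28 had p = 0.1 in a 2-sided exact permutation test, the smallest that 3 against 3 libraries can give (0.3 adjusted over 3 pairs).

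The 6 proteases not called were CTSD, the aspartic protease cathepsin D, with a log2 fold change of 0.04 (SE 0.0590), CTSC, which activates granule serine proteases, with -0.10 (SE 0.0428), CTSH with -0.09, CTSZ with -0.08, CTSO with -0.06 and CTSF with 0.11. CTSD stood at 332.8 ± 24.2 CPM in the controls against 341.3 ± 15.8 CPM with khellin, and these overlapped. Per kilobase of annotated exon, CTSZ, CTSD and CTSL were the most abundant proteases, with means over the 6 libraries of 107.9, 107.8 and 106.9 CPM per kilobase, and CTSK, CTSS, CTSV and CTSO the least, with 2.77, 2.54, 2.02 and 0.896. CTSL and CTSD, at nearly the same level, thus differed in their calls, and the difference between them was not tested.

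**Figure D3:**
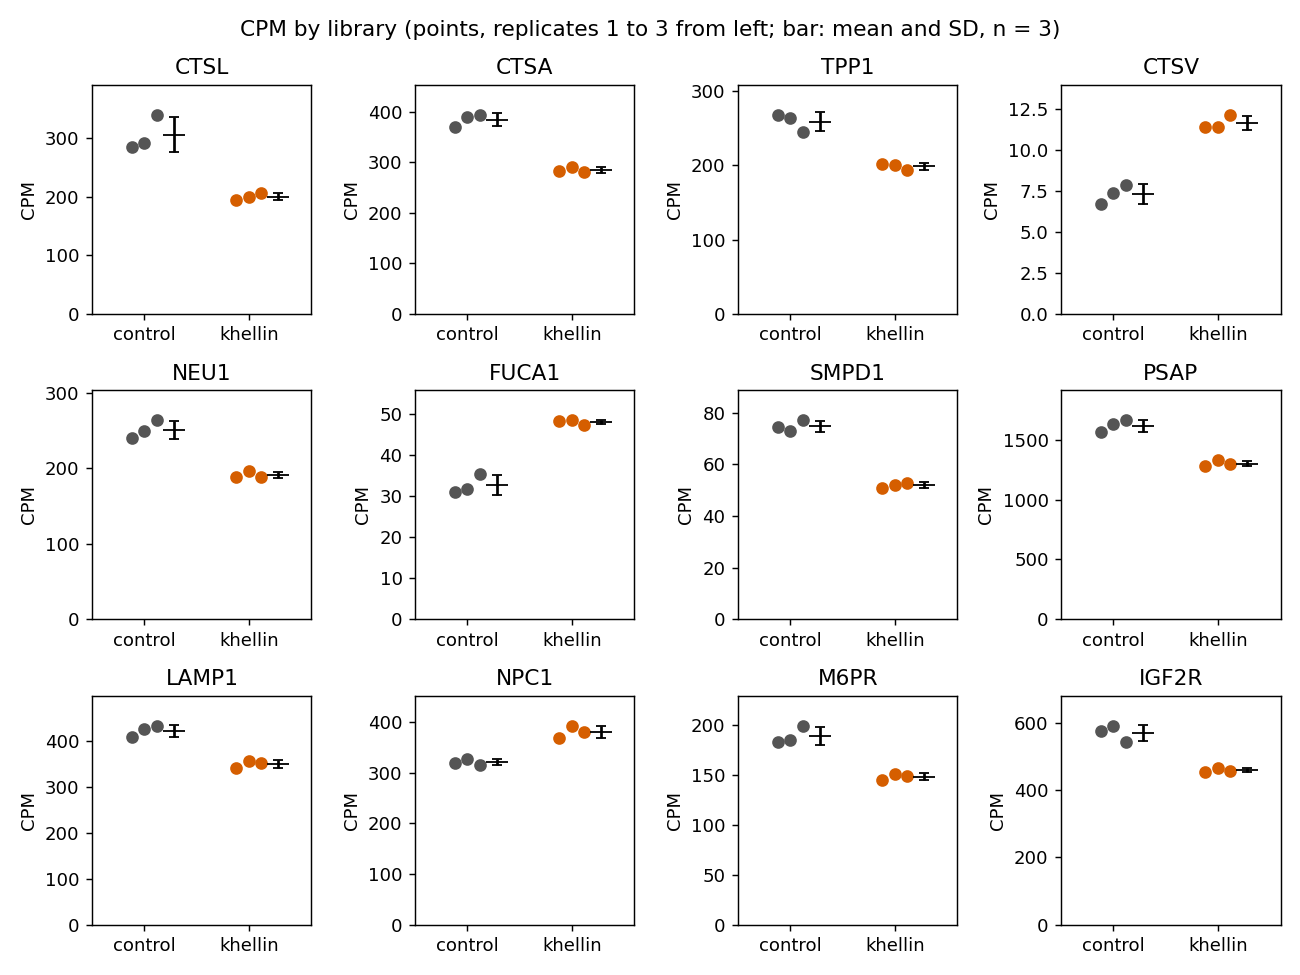
CPM of 12 genes by library (y axis from 0), with replicates 1 to 3 from left to right in each group and the mean with its SD (n = 3) beside them. CTSV, FUCA1 and NPC1 are higher in all khellin libraries, and the other 9 genes are lower in all of them.

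Of 13 glycosidase genes, which encode enzymes that remove sugars from glycoproteins, glycolipids, glycogen and glycosaminoglycans, 4 fell and 1 rose (median log2 fold change -0.09). The shares are 30.8% lower, against 8.82% of all tested genes, and 7.69% higher, near the 10.6% of all. FUCA1 encodes the lysosomal alpha-fucosidase. This gene (chromosome 1, minus strand, 23845077 to 23868290) had 30.9, 31.9 and 35.4 CPM in the controls against 48.4, 48.6 and 47.5 CPM with khellin. Its log2 fold change was 0.56 (SE 0.0650, edgeR adjusted p = 0.000464), without overlap. Its relative FUCA2, which encodes a secreted fucosidase, went the other way, with means of 201.4 CPM in the controls and 172.6 CPM with khellin and a log2 fold change of -0.22 (SE 0.0511). FUCA2 lost its call without khellin replicate 1, 2 or 3 (adjusted p of at most 0.0642).

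NEU1, the lysosomal sialidase (chromosome 6, minus strand, 31857659 to 31862905), had 240, 250 and 264 CPM in the controls against 189, 196 and 189 CPM with khellin. It fell by 0.39 (SE 0.0474, edgeR adjusted p = 0.000556), with all khellin values below all controls. GLA, the alpha-galactosidase missing in Fabry disease (chromosome X, minus strand, 101393273 to 101408012), had 81.0, 78.5 and 85.4 CPM in the controls against 67.9, 66.4 and 64.6 CPM with khellin, and fell by 0.30 (SE 0.0516, edgeR adjusted p = 0.00379). HEXA, the alpha subunit of beta-hexosaminidase A, fell by 0.29 (SE 0.0553).

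The 8 glycosidase genes not called lay between -0.12 and 0.13. GAA, which breaks down glycogen, stood at 0.13 (SE 0.0547) with higher values in all khellin libraries, and with library size alone it was called (adjusted p = 0.0492). GUSB, the beta-glucuronidase, stood at -0.12, MANBA at -0.10, IDUA at -0.09, GLB1 at -0.08, MAN2B1 at -0.04, NAGLU at 0.07 and GBA2, a glucosylceramidase that acts outside the lysosome, at 0.05. GUSB was called lower without control replicate 1 (adjusted p = 0.0454).

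The class of lipid hydrolases and their cofactors had 5 falls and no rise among 8 genes, with a median of -0.17. The falls make 62.5%, against 8.82% of all tested genes. SMPD1, the acid sphingomyelinase, which turns sphingomyelin into ceramide, had 74.4, 72.9 and 77.1 CPM in the controls against 50.9, 52.0 and 53.0 CPM with khellin. The values within each group were close, and the gene (chromosome 11, plus strand, 6390440 to 6394998) fell by 0.52 (SE 0.0503), with the smallest adjusted p of the 55 genes, 0.000155 by edgeR's quasi-likelihood test.

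PSAP, the precursor of the saposins that present sphingolipids to their hydrolases, was the most abundant of the 55, at a mean of 451 CPM per kilobase. The gene (chromosome 10, minus strand, 71816298 to 71851251) had 1564, 1630 and 1665 CPM in the controls against 1285, 1329 and 1295 CPM with khellin, a log2 fold change of -0.31 (SE 0.0401, edgeR adjusted p = 0.000759). PPT1, which removes palmitate from proteins (chromosome 1, minus strand, 40072710 to 40097260), had 240, 236 and 241 CPM in the controls against 209, 209 and 211 CPM with khellin, and fell by 0.19 (SE 0.0383, edgeR adjusted p = 0.00892). The groups were apart for both genes, and PPT1 lost its call without khellin replicate 1 or 3 (adjusted p of at most 0.0541).

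NPC2, which hands cholesterol to NPC1, fell by 0.27 (SE 0.0670) and lost its call without control replicate 2 or khellin replicate 1, 2 or 3 (adjusted p of at most 0.0998). ASAH1, the acid ceramidase, fell by 0.16 (SE 0.0475). Its call was the least stable, lost in 9 of 15 alternatives, among them those without control replicate 1 or 2 or without khellin replicate 1, 2 or 3 (adjusted p of at most 0.148). The genes not called were GM2A, the GM2 ganglioside activator protein, at -0.13 (SE 0.0454), LIPA, the acid lipase of cholesteryl esters, at -0.10 (SE 0.0532), and PPT2 at 0.07 (SE 0.0758). LIPA was called lower without control replicate 3 (adjusted p = 0.0438).

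Sulfatases, which remove sulfate groups from glycosaminoglycans and sulfolipids, changed least firmly. Of 5 genes, 2 fell (40%, against 8.82% of all tested genes). Neither call held with library size alone or without khellin replicate 1, 2 or 3. ARSB, which acts on dermatan sulfate (chromosome 5, minus strand, 78777209 to 78986087), had 40.9, 39.0 and 42.7 CPM in the controls against 35.1, 35.9 and 35.2 CPM with khellin (log2 fold change -0.21, SE 0.0584, edgeR adjusted p = 0.0354). GALNS, which acts on keratan sulfate (chromosome 16, minus strand, 88813734 to 88856970), had 31.8, 33.1 and 34.3 CPM in the controls against 28.24, 29.69 and 28.03 CPM with khellin (log2 fold change -0.21, SE 0.0600, edgeR adjusted p = 0.0387). Neither showed overlap between the groups. Both also lost the call without control replicate 2 and with the replicate number as a block. GALNS lost it without control replicate 3 and with upper quartile factors too. The adjusted p was at most 0.132 for ARSB and 0.152 for GALNS in any alternative. IDS, the iduronate sulfatase (chromosome X, minus strand, 149476988 to 149521096), had 22.8, 23.9 and 20.6 CPM in the controls against 24.0, 24.8 and 25.6 CPM with khellin and did not pass (log2 fold change 0.14, SE 0.0716, edgeR adjusted p = 0.192). SGSH stood at -0.07 and ARSA, the sulfatase of sulfatide, at 0.0050.

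Of 9 membrane protein genes, 4 fell and 1 rose (median log2 fold change -0.13). The shares are 44.4% lower, against 8.82% of all tested genes, and 11.1% higher, near the 10.6% of all. LAMP1, the main glycoprotein of the lysosomal membrane, had 408, 427 and 433 CPM in the controls against 341, 357 and 352 CPM with khellin. The gene (chromosome 13, plus strand, 113297239 to 113323672), whose upstream stretch is printed above, fell by 0.27 (SE 0.0421, edgeR adjusted p = 0.00213). LAMP2, its relative that also serves chaperone-mediated autophagy (chromosome X, minus strand, 120426148 to 120469365), had 189, 160 and 158 CPM in the controls against 170, 154 and 167 CPM with khellin. These overlapped, with a log2 fold change of -0.05 (SE 0.0734, edgeR adjusted p = 0.673), and control replicate 1 stood above the rest. The log2 ratio of LAMP1 to LAMP2 counts was 1.32 ± 0.189 in control and 1.10 ± 0.107 in khellin libraries, a difference of -0.22 with overlap between the groups (2-sided exact permutation p = 0.2, n = 3 per group, 0.3 adjusted over 3 pairs, with 0.1 as the smallest p possible). Without control replicate 1 the difference was -0.33.

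NPC1, the membrane transporter that moves cholesterol out of lysosomes, rose while its soluble partner NPC2 fell. NPC1 (chromosome 18, minus strand, 23506184 to 23586506) had 318, 327 and 316 CPM in the controls against 367, 392 and 380 CPM with khellin, and the lowest khellin value stood above the highest control. Its log2 fold change was 0.25 (SE 0.0419, edgeR adjusted p = 0.00359). CD63, a tetraspanin of late endosomes and lysosomes (chromosome 12, minus strand, 55725323 to 55729707), had 328, 332 and 402 CPM in the controls against 270, 277 and 273 CPM with khellin. It fell by 0.37 (SE 0.0740, edgeR adjusted p = 0.00875), and by 0.28 (SE 0.0342) without the high control replicate 3.

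SCARB2, a type III membrane glycoprotein also called LIMP-2, and SLC17A5, the sialic acid exporter, fell by 0.22 (SE 0.0619) and 0.16 (SE 0.0481). Both lost the call with library size alone and without control replicate 2 or khellin replicate 1, 2 or 3. SLC17A5 also lost it with upper quartile factors and with the replicate number as a block. The adjusted p was at most 0.130 for SCARB2 and 0.157 for SLC17A5. CTNS, the cystine exporter, stood at -0.13, and LAMP3 at 0.23 (SE 0.0954). LAMP3 was called higher without control replicate 1 (adjusted p = 0.0324). CLN3 had only 18 to 31 reads per library and a log2 fold change of 0.02 (SE 0.267). It overlaps a protein-coding gene named only by an identifier on the same strand, so that its own reads may be counted in part.

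Among the 6 genes of delivery and sorting, 3 fell (50%, against 8.82% of all tested genes) and none rose. The class had the lowest median, -0.25. Both mannose 6-phosphate receptors fell. M6PR, the cation-dependent receptor (chromosome 12, minus strand, 8940361 to 8949761), had 183, 185 and 199 CPM in the controls against 145, 151 and 149 CPM with khellin (log2 fold change -0.35, SE 0.0476, edgeR adjusted p = 0.00108). IGF2R, the cation-independent receptor (chromosome 6, plus strand, 159969082 to 160113507), which also binds insulin-like growth factors, had 577, 592 and 543 CPM in the controls against 455, 465 and 459 CPM with khellin (log2 fold change -0.31, SE 0.0434, edgeR adjusted p = 0.00121). The groups were apart for both. The log2 ratio of M6PR to IGF2R counts was -1.59 ± 0.127 in control and -1.63 ± 0.0157 in khellin libraries, a difference of -0.037 (2-sided exact permutation p = 1, n = 3 per group, 1 adjusted over 3 pairs).

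GRN, which encodes progranulin, a secreted protein cut into granulins in the lysosome (chromosome 17, plus strand, 44345246 to 44353106), had 766, 817 and 861 CPM in the controls against 624, 690 and 663 CPM with khellin. All khellin values were below all controls, and the log2 fold change was -0.31 (SE 0.0548, edgeR adjusted p = 0.00467). SORT1, the sorting receptor sortilin that binds progranulin, stood at 0.10 (SE 0.0481). The phosphotransferase genes GNPTAB and GNPTG, whose products make the mannose 6-phosphate tag, stood at 0.07 (SE 0.0688) and -0.19 (SE 0.0724). None of these 3 passed, and GNPTG was called lower without control replicate 1 (adjusted p = 0.0324).

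Summed over each class, CPM was lower in all khellin libraries than in any control library in all 6 classes. The CPM sum over all genes of the table was lower too, at 1007900 to 1024100 in the controls against 983930 to 987100 with khellin, a mean that fell by 3.01%. That sum follows from the scaling by TMM factors, 0.977 to 0.993 in the controls and 1.014 to 1.017 with khellin. It is not a measured loss of RNA. The lipid class summed to 2458 to 2592 CPM in the controls against 2071 to 2113 CPM with khellin, a mean that fell by 17.3%. The delivery sum fell by 16.8%, the protease sum fell by 14.5%, the glycosidase sum fell by 9.59%, the membrane protein sum fell by 8.66% and the sulfatase sum fell by 5.90%. Such sums follow the most abundant genes: without PSAP the sum of the lysosomal genes fell by 12.9%, and with PSAP it fell by 14.0%, from 9748 ± 283 to 8386 ± 122 CPM (SD, n = 3). They are descriptions with no test.

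**Figure D4:**
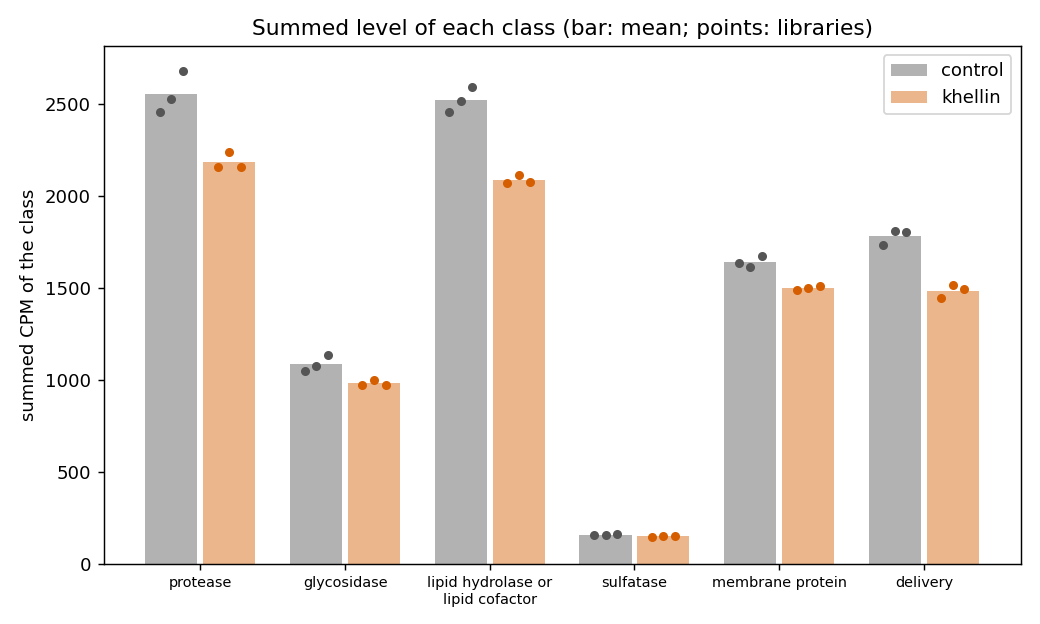
Summed CPM of each class (y axis from 0) in control and khellin libraries, with bars for the mean of 3 libraries and points for the libraries. The khellin points lie below the control points in each class. The sum over all genes, not plotted, is 3.01% lower through the scaling by TMM factors. The difference of the means is largest for the lipid class, from 2523 to 2086 CPM.

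The genes that fell were mostly those of high level, a division made after the values were seen. Of the 27 genes with the highest mean CPM over all libraries (93.9 to 1461 CPM), 18 fell and 1 rose, with a median log2 fold change of -0.21. Of the other 28 (0.802 to 75.7 CPM), 5 fell and 4 rose, with a median of -0.03. Over all tested genes in the first CPM range, 478 of 2671 fell and 281 rose (median -0.04), and in the second 775 of 10484 fell and 1231 rose (median 0.01). A small change is called more readily where counts are high. The medians do not depend on the calls, and why they differ was not tested.

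**Figure D5:**
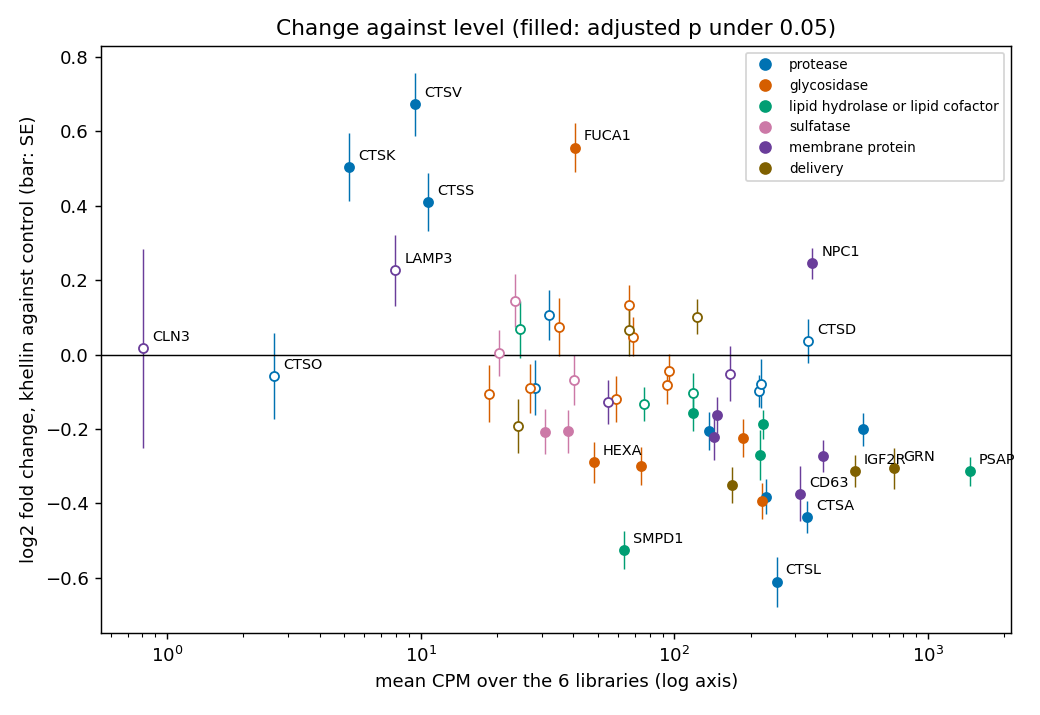
Log2 fold change with its standard error (y axis) against mean CPM over the 6 libraries (x axis, log scale), coloured by class, filled where the adjusted p was under 0.05. Apart from NPC1, the genes that rose lie at the level of FUCA1 or lower, and NPC1 lies among the abundant genes.

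In the annotation of the count table, 53 of the 55 genes, all but GRN and GBA2, carry the KEGG term for the lysosome. Of the 71 other tested genes with that term, 11 fell and 6 rose, with a median log2 fold change of -0.04. These are 15.5% and 8.45%, against 8.82% and 10.6% of all tested genes. In a list of other soluble lysosomal proteins and their modifiers, 6 of 33 tested genes fell and 1 rose (18.2% and 3.03%, median -0.10). CREG1, a secreted glycoprotein also found in lysosomes, fell by 0.30 (SE 0.0463). In a list of other lysosomal membrane proteins, 4 of 21 fell and 5 rose (19% and 23.8%, median 0.01). LAPTM5 rose by 0.28 (SE 0.0430), while MFSD1, a transporter, and GLMP, its accessory subunit, fell by 0.54 (SE 0.0865) and 0.38 (SE 0.0610).

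Of 6 tested cystatin genes, which encode inhibitors of cysteine cathepsins, 1 rose and 1 fell (16.7% each, against 10.6% and 8.82% of all tested genes). CST7 rose by 0.56 (SE 0.140) from 2.26 CPM, and CSTB, the cytosolic stefin B, fell by 0.36 (SE 0.106) from 133.6 CPM. CST7 lost its call without control replicate 2 or khellin replicate 1 or 2 (adjusted p of at most 0.0819). CSTB lost it in 8 of 15 alternatives, among them RLE factors, no filter, and the fits without control replicate 2 or khellin replicate 1, 2 or 3 (at most 0.193). CST3, the secreted cystatin C, stood at -0.21 (SE 0.0724, edgeR adjusted p = 0.0719) and was called lower with no filter and without control replicate 1 (adjusted p = 0.0116 and 0.00847). Of the transcription factors that read the CACGTG-type site, TFE3 fell by 0.16 (SE 0.0487, edgeR adjusted p = 0.0428), and MITF and TFEB stood at 0.18 (SE 0.0853) and 0.12 (SE 0.0873). TFE3 lost its call with upper quartile factors, with library size only and without control replicate 2 or khellin replicate 1, 2 or 3 (adjusted p of at most 0.180). MITF was called higher without control replicate 1 (adjusted p = 0.0279).

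Markers of the line and of other cells were read beside these values. VIM, CD44, AXL, SPARC and EGFR, known for MDA-MB-231, summed to 4008 to 4231 CPM in the controls against 3984 to 4144 CPM with khellin. VIM, with the highest CPM of these, stood at 0.12 (SE 0.0423) and was not called, while CD44 fell by 0.29 (SE 0.0391) and EGFR fell by 0.22 (SE 0.0513). EGFR lost its call without control replicate 2 or khellin replicate 1, 2 or 3 (adjusted p of at most 0.0696). The sum of 6 luminal epithelial markers was 15.2 to 18.5 CPM over all libraries. Macrophage and blood markers, whose cells are rich in CTSS, were summed over the 6 of 8 analysed here. The sum was 2.38 to 2.60 CPM in the controls against 2.77 to 4.10 CPM with khellin. Most of it was CD14, with means of 1.73 CPM in the controls and 2.57 CPM with khellin. CD14 rose (log2 fold change 0.57, SE 0.166), a call lost in 7 of 15 alternatives (adjusted p of at most 0.138). Among them were the fits without control replicate 1 or 2 or without khellin replicate 1, 2 or 3. PTPRC, CD163, FCGR3A and SPI1 had too few counts to be tested. CD163 had means of 0.202 CPM in the controls and 0.157 CPM with khellin, and FCGR3A and SPI1 had no count in the khellin libraries. Fibroblast markers summed to 6.32 to 6.90 CPM in the controls against 11.6 to 12.8 CPM with khellin over the 5 of 6 analysed, of which COL1A1 rose by 0.86 (SE 0.0793) and PDGFRB by 1.35 (SE 0.371). PDGFRB had only 5 to 16 reads per control library and 20 to 38 per khellin library. It lost its call with the replicate number as a block and without control replicate 3 or khellin replicate 2 or 3 (adjusted p of at most 0.132). The part of such other cells in the rises of CTSK and CTSS was not tested.

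Total counts ranged from 28631578 to 30956610 per library, and 3 counts correspond to 0.0977 to 0.103 CPM. Of the 55 genes, 29 overlap another gene of the table, 25 of them a gene on the opposite strand and 9 a gene on their own strand. Since the strand setting of the counting is not given in the sources used here, reads of such pairs cannot be assigned to one gene with certainty. LIPA overlaps IFIT2, IFIT3 and IFIT1 on the opposite strand, which had 70969, 56489 and 41747 counts in total, and GBA2 overlaps CREB3 (9783 counts). Among the other such pairs are M6PR with PHC1, NPC1 with RMC1, NPC2 with ISCA2, GLA with RPL36A, CTSA with PLTP and NEURL2, GALNS with TRAPPC2L and CD63 with CD63-AS1. GM2A with CCDC69 (6908 counts), SGSH with SLC26A11 (4451) and GNPTG with UNKL (4191) are further ones. On the same strand, the partner with the most counts (3601) is a protein-coding gene named only by an identifier, which overlaps MAN2B1. CTSL and CTSV are related in sequence, and how the authors treated reads that fit both is not given.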

How the data were processed

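The authors deposited raw read counts per gene for 6 libraries. fastp, HISAT2 and HTSeq are named in the submitters' processing notes, and their versions, the strand setting, the build and the annotation release are not given in the sources used here. Of 25378 identifiers shared with GENCODE release 29 on GRCh38, 25358 overlapped it in coordinates, so this build was inferred by comparison. Groups came from the sample titles. Genes kept by filterByExpr were tested over the whole table with edgeR's quasi-likelihood test (TMM factors, robust fit, group as the only term, Benjamini-Hochberg adjustment over all 15865 genes, threshold 0.05). The SE is the absolute log2 fold change divided by the square root of F. The counts behind CPM carry counting error, and a biological coefficient of variation of 6.95% was estimated. Exon lengths for levels per kilobase are the merged exons of GENCODE 29. Library pairs of a group differed by a chi-square of 1.91 to 20.8 per degree of freedom, so none was a copy.

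The members and lists were chosen with earlier results of these data known. In each class the 3 genes with the smallest p, and CTSL, CTSV, LAMP1, LAMP2, M6PR and IGF2R, are described in full, and CTSK and CTSS after their values were seen. The choices varied were the factors (RLE, upper quartile, or none beyond library size), the filter (none, or 1 CPM in at least 3 libraries), the tool (DESeq2 or limma-voom), the replicate number as a block, and the libraries, each left out in turn. A gene length and GC offset (mgcv) was added after the data were seen. Promoter windows and chromosome positions of motifs are from RefSeq on GRCh38.p14, with the first window of a gene where several are listed. The software was Python 3.11.15 and R 4.3.3 with mgcv 1.9.3, DESeq2 1.42.0, limma 3.58.1 and edgeR 4.0.16. Some items of the other gene lists are not reported here.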

Additional observations from a re-analysis of the deposited data

How the results depend on the processing

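The numbers of lysosomal genes called lower and higher were 23 and 5 with RLE factors, no filter, the filter of 1 CPM, DESeq2 and limma-voom. The lower count was 20 with upper quartile factors, 18 with library size only, and 31 with the gene length and GC offset, which called 3086 genes lower in all. The offset called 7 glycosidase genes lower, and library size only called 2 higher. Sulfatases called lower numbered 1 with upper quartile factors and 0 with library size only, which left 2 membrane protein genes lower. With 1 library left out, members called lower ranged from 13 to 24, all genes called lower from 643 to 1722 and higher from 919 to 1990. Over the same settings proteases called lower ranged from 3 to 5, lipid genes from 2 to 6, sulfatases from 0 to 2 and membrane protein genes from 2 to 4, and membrane protein genes called higher from 1 to 2. Without control replicate 1 or 3 more genes in all were called lower (1722 and 1626, against 1399 with all libraries). Without any other library fewer were. The reason was not tested. The medians of the 55 genes and of each class were below 0 in each of the 15 alternatives.

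Signs turned for 5 uncalled genes. CTSD had -0.014 with the length and GC offset, and with 1 library left out it ranged from -0.0071 (without control replicate 1) to 0.094. MAN2B1 had 0.00080 with library size only. LAMP2 ranged from -0.099 to 0.035, the latter without control replicate 1. ARSA had -0.0080 with RLE factors and with DESeq2, -0.055 with the offset, -0.017 and -0.0055 without control replicates 1 and 2 and -0.0041 without khellin replicate 1, with 0.034 as the highest value of such fits. CLN3 had -0.063 with the offset, -0.16 without control replicate 3 and -0.23 without khellin replicate 1, with 0.16 as the highest value of such fits. The M6PR to IGF2R difference ranged from -0.079 to 0.036, the latter without control replicate 3. The cause was not tested.

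The replicate numbers were not shown to pair the libraries, which share only a number. Deviations from the group means of same-numbered libraries correlated at 0.14, 0.034 and -0.12 across genes. A replicate block gave 19 genes lower and 5 higher, 0 sulfatases lower, and 1282 lower and 1533 higher genes in all. At this depth the standard errors of the log2 fold changes ran from 0.0383 (PPT1) to 0.267 (CLN3).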
